A study of Mus musculus with 36 samples.

Results

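Hcn2, Hcn4, Scn7a, Scn3b and Scn4b encode pore-forming and accessory subunits of the channels that carry the pacemaker current and the sodium current, and their messenger RNA was followed here through mouse heart development. The members are all probe sets of the array whose annotated symbol is 1 of these 5 genes. Rows were found for 4 of the 5 genes, with 7 of the 45101 probe sets in all: 1 for Hcn2, 3 for Scn7a, 2 for Scn3b and 1 for Scn4b. Hcn4 is not analysed here, because neither its symbol nor its gene ID has a row. A probe set is a group of short probes that together read a transcript, and its value is a log2 intensity, so that a difference of 1 is a 2-fold change. Where a gene has several probe sets, the one with the highest mean over the 36 arrays is taken as its main one and the others stand beside it.

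Hearts of OF1 mice (Oncins France 1, an outbred strain), untreated and without engineered alleles as far as the sources used here state, were taken daily between E10.5 and E19.5, from young adults of 10 weeks and from old adults. The age of the old adults is given as 14 months in the series' design text and as 10 months in the study's text. Each of the 12 stages has 3 arrays: all are of mixed sex at E10.5 and E11.5, and from E12.5 on 1 array is labelled female, 1 male and 1 mixed. The study calls the 3 arrays of a stage biological replicates, and their number limits the precision of every value. The arrays read bulk heart RNA, so that fewer cells of a type and less RNA per cell cannot be told apart.

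According to the labels' extraction text the tissue was liver, whereas the study names heart. In every array the mean over 5 cardiomyocyte markers (Actc1, Tnnt2, Tnni3, Ryr2 and Myl2) lay between 11.15 and 12.11, and the mean over 4 liver markers (Alb, Afp, Apoa1 and Ttr) lay between 3.24 and 4.03. None of the 4 liver markers had a mean above 5 at any stage, the level that the study takes as expressed. The hybridization controls, foreign transcripts added in a fixed amount, stood at a mean of 9.90 in E10.5 arrays, 12.17 in young adult and 11.37 in old adult, although the arrays had been normalized to the same distribution. Sample titles change their prefix from the female E16.5 array on, which no source calls a batch.

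The heartbeat begins in the sinoatrial node, where hyperpolarization-activated cyclic nucleotide-gated (HCN) channels open as the membrane becomes negative and pass an inward current that brings the cell back to threshold. Voltage-gated sodium channels then carry the fast upstroke of atrial and ventricular myocytes and of the conduction system. Their pore lies in an alpha subunit, and small beta subunits with a single membrane span adjust its gating and its place in the membrane. Hcn2 and Hcn4 encode HCN pore subunits, and Scn3b and Scn4b the beta3 and beta4 subunits. Scn7a encodes Nax, an atypical relative of the alpha subunits that is linked to the sensing of extracellular sodium and is known from glia, Schwann cells and some neurons.

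Scn7a and Scn4b had the most alike stage profiles among the members, as described further on, and the bases before their transcription starts are therefore shown. Of the 5 genes, 4 have an entry in the RefSeq promoter table for GRCm38.p6, and Scn3b has none. Scn7a lies on chromosome 2 (chr2:66673426-66784910, minus strand) and Scn4b on chromosome 9 (chr9:45138624-45154155, plus strand). Capitals mark the longest run of bases that both windows share on the transcribed strand, found by a search of each pair of members made after their profiles were known. The window before Scn7a is chr2:66784911-66785160 on the minus strand, and that before Scn4b is chr9:45138374-45138623 on the plus strand, both of 250 bases and written 5′ to 3′.
Scn7a: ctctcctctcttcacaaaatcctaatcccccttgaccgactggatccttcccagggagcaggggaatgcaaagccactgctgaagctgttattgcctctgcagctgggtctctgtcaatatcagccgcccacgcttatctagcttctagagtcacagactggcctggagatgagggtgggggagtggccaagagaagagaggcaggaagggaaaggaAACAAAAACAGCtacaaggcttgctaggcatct
Scn4b: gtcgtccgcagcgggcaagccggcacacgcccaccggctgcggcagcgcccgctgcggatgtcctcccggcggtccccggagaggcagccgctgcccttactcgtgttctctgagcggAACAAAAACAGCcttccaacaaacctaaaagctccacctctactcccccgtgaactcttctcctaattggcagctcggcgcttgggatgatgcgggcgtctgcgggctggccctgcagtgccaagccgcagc

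The shared run of 12 bases begins 33 bases before the start of Scn7a and 132 bases before that of Scn4b. It occurs on either strand in 4 of the 32851 windows of this length in the table (0.0122%), which belong to Scn7a, Scn4b, Erc2 and Etv1. Scn7a and Scn4b are among these because the run was taken from them. How often 2 windows share a run of 12 bases was not tested. The longest runs shared by the other 5 pairs of members, Hcn4 included, had 7 to 10 bases. The 2 windows were otherwise unlike: the Scn7a window was 53.2% G and C with 3 CpG dinucleotides, the Scn4b window 66% with 23, and the median of all windows 52.4% with 6. On either strand, the GATA motif AGATAA matched once in the Scn7a window, 116 bases before the start, and not in those of Scn4b or Hcn2, and 9.99% of all windows hold it. The E-box CANNTG matched once before Scn7a and once before Hcn2 and is held by 66.2% of all windows. No match of the TATA box TATAAA (12.4% of windows), the Nkx2-5 motif CAAGTG (11.6%) or the T-box motif AGGTGT (11.8%) was found in the windows of Scn7a, Scn4b or Hcn2, whereas the Hcn4 window holds 1 T-box match, 233 bases before the start. None of these letters is shown to be a binding site.

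**Figure D1:**
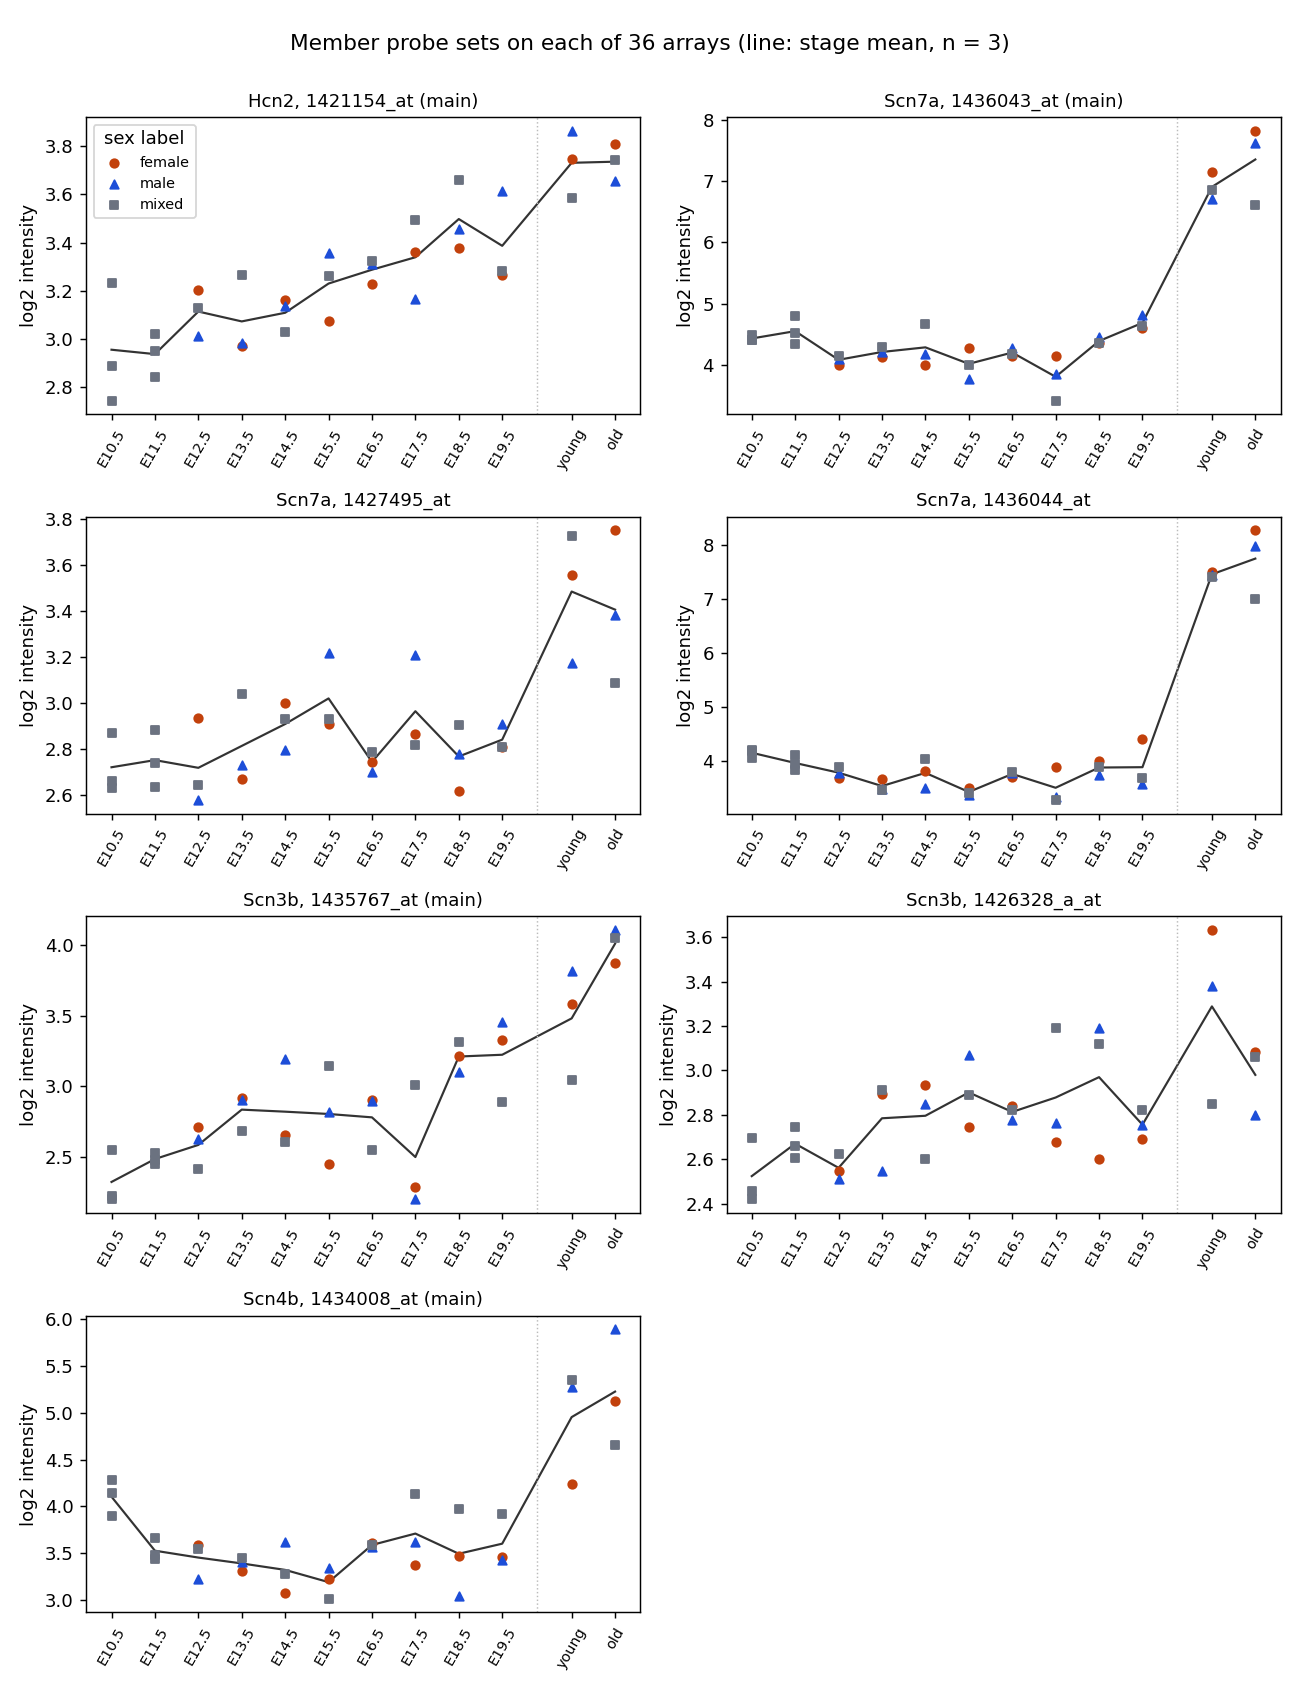
Log2 intensity (y axis) of the 7 member probe sets on each of the 36 arrays by stage (x axis; the dotted line parts embryonic from adult stages), with 1 symbol per array by its sex label and a line through the stage means (n = 3). The Scn7a probe sets 1436043_at and 1436044_at stay below 5 on all 30 embryonic arrays and above 6 on all 6 adult arrays. Hcn2 climbs in small steps, and Scn4b is higher at E10.5 than at E15.5 before its adult rise.

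Scn7a, the atypical sodium channel relative, was the member with the largest difference between the embryonic and the adult heart. Its main probe set 1436043_at read 4.40, 4.48 and 4.41 on the 3 arrays at E10.5 and 4.60, 4.82 and 4.63 on the female, male and mixed arrays at E19.5. In young adult hearts the same probe set read 7.14, 6.71 and 6.86 on the female, male and mixed arrays. In old adult hearts it read 7.82, 7.62 and 6.62. The adult arrays thus stood apart from every embryonic array, with 6.62 the lowest adult value and 4.82 the highest embryonic one.

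The difference between E10.5 and young adult for Scn7a was -2.47 on the log2 scale (SE 0.21, adjusted p = 1.69e-11), which is a 5.56-fold lower intensity at E10.5. All tests between stages are from limma, a linear model that steadies the variance of each probe set with that of all others, with 12 stage means fitted to all 36 arrays and p adjusted by the Benjamini-Hochberg method over all 45101 probe sets. At E19.5 the difference from young adult was still -2.22 (SE 0.21, adjusted p = 8.98e-10). The second probe set, 1436044_at, read 4.22, 4.06 and 4.20 at E10.5, and 7.51, 7.45 and 7.41 in female, male and mixed young adult hearts. Its difference was -3.30 (SE 0.21, adjusted p = 3.4e-14), a 9.83-fold change, and over the 36 arrays it correlated with the main probe set at r = 0.98. The third probe set, 1427495_at, stayed under 3.75 on all arrays and was also lower at E10.5, by a log2 difference of -0.76 (SE 0.16, adjusted p = 0.000116).

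Under the study's own limits for differential expression (adjusted p under 1e-05, a log2 difference of more than 2 in either direction, and some stage mean over 5), Scn7a was the member called, both for E10.5 and for E19.5 against young adult. Its stage means were over 5 only in the 2 adult stages. Hcn2 and Scn3b could not be called, because no stage mean of theirs was over 5. Those limits called 6.53% of all probe sets at E10.5 and 1.45% at E19.5. All 6 adult arrays lay above all 30 embryonic arrays in 1436043_at and 1436044_at, the only 2 of the 7 member probe sets with that property, which 4.18% of all probe sets have. In Scn4b 1 embryonic array reached above the lowest adult one, in Hcn2 2 did, and in the main probe set of Scn3b 7 did.

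Scn4b, the beta4 subunit, was also lower throughout embryonic life than in the young adult, and its embryonic mean was highest at E10.5. It read 4.14, 4.28 and 3.89 at E10.5 and 3.44, 3.67 and 3.48 at E11.5. The lowest stage mean came at E15.5, with 3.22, 3.34 and 3.01 on the female, male and mixed arrays. At E19.5 it read 3.45, 3.43 and 3.92 in the same order. Young adult hearts read 4.23, 5.28 and 5.35, and old adult hearts 5.13, 5.89 and 4.66. The female young adult array lay well below the male and mixed ones and below the highest E10.5 array, so that E10.5 and young adult overlapped, whereas the other 9 embryonic stages did not overlap with it.

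For Scn4b the log2 difference from young adult was -0.85 at E10.5 (SE 0.26, adjusted p = 0.00597), -1.76 at E15.5 (SE 0.26, adjusted p = 1.48e-06) and -1.35 at E19.5 (SE 0.26, adjusted p = 0.00015). In fold terms these were 1.80, 3.39 and 2.55. The E10.5 difference missed the threshold without the mixed young adult array (-0.65, adjusted p = 0.0517). Its mean passed 5 in old adult (5.23 ± 0.62, SD, n = 3) and was just short of it in young adult (4.95 ± 0.62, SD, n = 3), and 4 of its 36 arrays exceeded 5.

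Hcn2, a pacemaker channel subunit, rose by small amounts over embryonic life. Its probe set 1421154_at read 3.23, 2.75 and 2.89 at E10.5, and 3.07, 3.36 and 3.26 on the female, male and mixed arrays at E15.5. It read 3.26, 3.61 and 3.28 at E19.5. Female, male and mixed young adult hearts read 3.74, 3.86 and 3.58, and old adult hearts 3.81, 3.65 and 3.74. All 3 young adult arrays lay above all 3 at E10.5, while at E19.5 the male array lay above the lowest young adult one.

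The log2 difference of Hcn2 from young adult was -0.77 at E10.5 (SE 0.13, adjusted p = 9.97e-06), a 1.71-fold change, and -0.34 at E19.5 (SE 0.13, adjusted p = 0.0493). The latter did not hold without the female or mixed E19.5 array or without the male or female young adult array (adjusted p up to 0.18). Hcn2 stayed below 3.87 on all arrays, and never reached the level of 5 that the study takes as expressed.

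Scn3b, the beta3 subunit, also moved at a low level. Its main probe set 1435767_at read 2.20, 2.23 and 2.55 at E10.5 and 3.33, 3.45 and 2.89 on the female, male and mixed arrays at E19.5. Young adult hearts read 3.58, 3.82 and 3.04, and old adult hearts 3.87, 4.11 and 4.05. The mixed young adult array fell within the E19.5 values, and the 3 arrays at E10.5 lay below every adult array.

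The log2 difference of Scn3b from young adult was -1.15 at E10.5 (SE 0.20, adjusted p = 1.65e-05), a 2.23-fold change, and -0.26 at E19.5 (SE 0.20, adjusted p = 0.38). Its other probe set, 1426328_a_at, differed by -0.76 at E10.5 (SE 0.17, adjusted p = 0.000269) and by -0.53 at E19.5 (SE 0.17, adjusted p = 0.0159). The 2 probe sets therefore gave different calls at E19.5, and over the 36 arrays they correlated at r = 0.58. Neither exceeded 5 on any array.

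At E10.5 all 4 measured members were thus lower than in young adult, with 4 of 4 main probe sets passing at an adjusted p under 0.05, a call that 63% of all probe sets received, 35.9% as lower. At E19.5 3 of 4 passed, Hcn2, Scn7a and Scn4b, against 29.1% of all probe sets, 13.6% as lower. Scn7a and Scn4b passed as lower at all 10 embryonic stages, Hcn2 at 9 (all but E18.5) and the main probe set of Scn3b at 8 (all but E18.5 and E19.5). The other Scn3b probe set passed at 7 stages, with E15.5, E17.5 and E18.5 missing. Being lower at all 10 stages was the call of 6.93% of all probe sets.

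**Figure D2:**
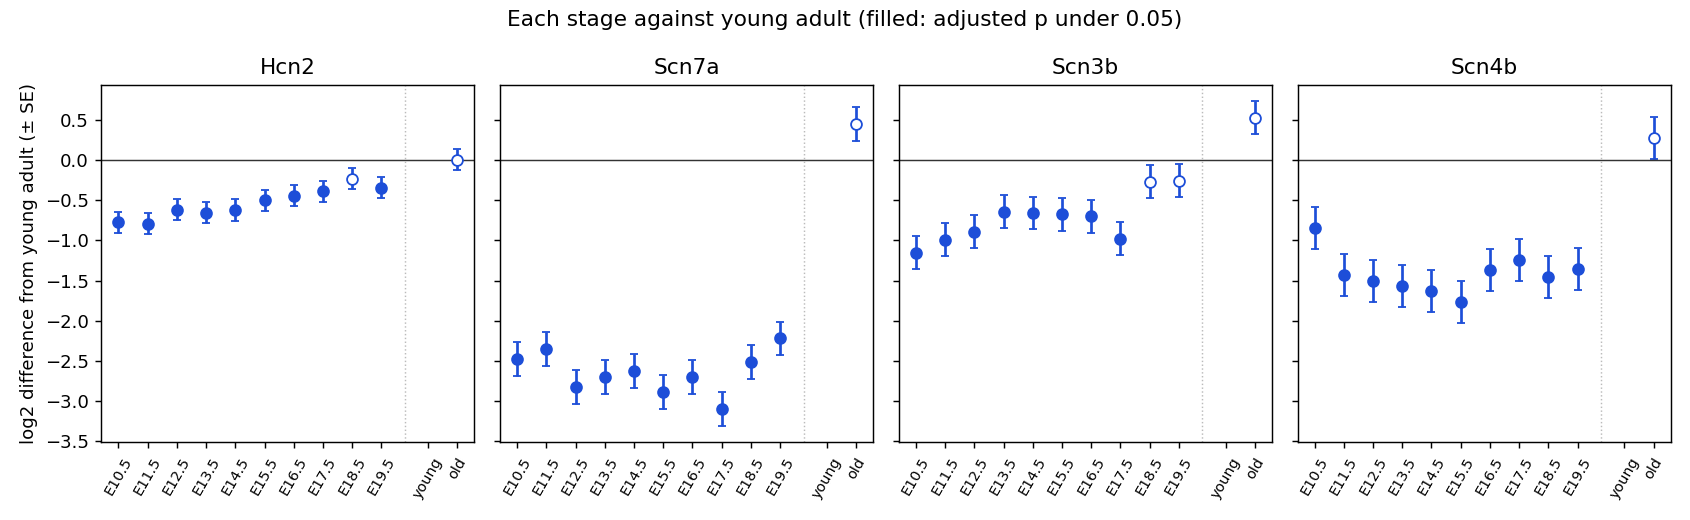
Log2 difference of each stage from young adult (y axis, ± SE from limma) by stage (x axis) for the main probe set of each member, with filled points at an adjusted p under 0.05. Scn7a lies between -3.10 and -2.22 at all embryonic stages and Scn4b between -1.76 and -0.85. Hcn2 and Scn3b approach 0 by E18.5.

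Low values as a whole moved in the same direction. Among the 24416 probe sets with a mean of 5 or less at every stage, the median log2 difference between E10.5 and young adult was -0.32, 79.3% were lower at E10.5, and 44.9% passed as lower. Hcn2 and Scn3b belong to this range, and their differences of -0.77 and -1.15 stand beside that median. The median over all 45101 probe sets was -0.19. With the hybridization control level as a covariate, Scn7a alone of the 4 passed at E10.5, and the differences of Hcn2, Scn3b and Scn4b were -0.42 (adjusted p = 0.254), -0.53 (adjusted p = 0.363) and -0.24 (adjusted p = 0.804). Within stages, that level correlated over 36 arrays with Hcn2 at r = 0.36, with Scn3b at 0.35, with Scn4b at 0.26 and with Scn7a at -0.42, and its median correlation with the probe sets never above 5 was 0.32. How much of the members' differences goes with the control level was not tested beyond this covariate.

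The next comparison asked whether the members moved within embryonic life, with E19.5 as the reference. Hcn2 was lower at E10.5 than at E19.5 by a log2 difference of -0.43 (SE 0.13, adjusted p = 0.00925), and the main probe set of Scn3b by -0.90 (SE 0.20, adjusted p = 0.00068). The other Scn3b probe set, 1426328_a_at, differed by -0.23 (adjusted p = 0.256) with overlapping arrays and did not pass. The values for Scn7a (-0.25, adjusted p = 0.321) and Scn4b (0.50, adjusted p = 0.114) did not pass. So 2 of 4 members passed by their main probe sets, against 45.5% of all probe sets. The call for Hcn2 was lost without the second E10.5 array (-0.32, adjusted p = 0.0808) or without the male E19.5 array (-0.32, adjusted p = 0.077).

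A straight line over embryonic day, fitted to the 30 embryonic arrays, rose by 0.0586 log2 units per day for Hcn2 (SE 0.00956, adjusted p = 4.49e-06) and by 0.076 per day for Scn3b (SE 0.0173, adjusted p = 0.000363). The other Scn3b probe set also had a positive slope, 0.0361 per day (adjusted p = 0.00712). The slopes of Scn7a (-0.00318 per day, adjusted p = 0.886) and Scn4b (-0.0182 per day, adjusted p = 0.406) did not pass. A slope passed in 67.6% of all probe sets, and the median slope of those never above 5 was 0.0282 per day, with 81.3% of them positive.

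An F test over the 10 embryonic stage means, which also picks up changes that are not straight, passed for all 4 main probe sets (Hcn2 adjusted p = 0.00841, Scn7a 0.00194, Scn3b 0.00365, Scn4b 0.0235), as it did for 50.9% of all probe sets. It passed for the second Scn7a probe set (adjusted p = 0.0179), and did not for 1427495_at of Scn7a (0.347) or 1426328_a_at of Scn3b (0.156). In its main probe set Scn7a had its lowest embryonic mean at E17.5 (3.81 ± 0.37, SD, n = 3) and its highest at E19.5 (4.68 ± 0.12, SD, n = 3). In 1436044_at the lowest came at E15.5 (3.44 ± 0.06, SD, n = 3) and the highest at E10.5 (4.16 ± 0.08, SD, n = 3), so that its 2 higher probe sets did not share an embryonic profile. Scn4b had its highest at E10.5 (4.10 ± 0.19, SD, n = 3) and its lowest at E15.5 (3.19 ± 0.17, SD, n = 3).

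No single day carried a tested change. Between neighbouring embryonic stages, 0 of 4 members passed in any of the 9 daily steps, and 4.78% of all probe sets passed in at least 1. In 4 of the 36 combinations of member and step the unadjusted p from limma was under 0.05. These were Scn4b from E10.5 to E11.5 (-0.58, adjusted p = 0.267), Scn7a from E11.5 to E12.5 (-0.47, adjusted p = 1), and Scn7a (0.58, adjusted p = 0.742) and Scn3b (0.71, adjusted p = 0.563) from E17.5 to E18.5. In that last step the E18.5 arrays of Scn3b read 3.21, 3.10 and 3.32 after 2.29, 2.21 and 3.01 at E17.5 on the female, male and mixed arrays, without overlap. The other Scn3b probe set differed by 0.09 in that step (adjusted p = 0.997), with overlap.

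Between young and old adult hearts no member passed by limma (0 of 4, against 6.96% of all probe sets), although the unadjusted p was under 0.05 for 2 of the 4. For Scn7a the old adult mean was higher by 0.45 (SE 0.21, adjusted p = 0.197), and without the mixed old adult array, which read 6.62 beside 7.82 and 7.62, the difference was 0.81 (adjusted p = 0.0104). That was the only 1 of 6 fits with an array left out to pass. The difference ran down to 0.21 and the adjusted p up to 0.599. The other Scn7a probe sets differed by 0.29 (1436044_at, adjusted p = 0.439) and -0.08 (1427495_at, adjusted p = 0.808). In Scn3b the 3 old adult arrays lay above the 3 young adult ones in the main probe set (0.53, SE 0.20, adjusted p = 0.111), whereas its other probe set was lower in old adult (-0.31, adjusted p = 0.272). Scn4b differed by 0.27 (SE 0.26, adjusted p = 0.57) and Hcn2 by 0.00467 (SE 0.13, adjusted p = 0.989).

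Male and female arrays were compared in 9 stages, those after E12.5, in a model that blocks on stage. None of the 4 main probe sets passed, and 0.0488% of all probe sets did. Scn4b was higher in the male array in 6 of 9 stages (male minus female 0.26, SE 0.12, adjusted p = 0.642). Its male array was the higher in both adult stages, and male minus female was larger in the adult than in the embryonic stages by 0.83 (SE 0.22, unadjusted p from limma 0.00163), which did not pass after adjustment (adjusted p = 0.103). The smallest unadjusted p among the 7 member probe sets, and the only one of them under 0.05, belonged to 1436044_at of Scn7a, which was lower in the male array in all but 1 of the 9 stages (-0.28, SE 0.09, adjusted p = 0.539). In the main Scn7a probe set the difference was also negative but small (-0.08, SE 0.09, adjusted p = 0.857), and the male array was the higher in 5 of 9 stages.

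The other channel genes of the same families that are reported here form a list of 10 genes with rows, described by counts. At E10.5, 7 of the 10 passed as lower than in young adult and none as higher, and none of the 10 had a mean above 5 at any stage. All 7 encode alpha subunits, of which 8 were measured, with a median log2 difference of -0.61. At E19.5 1 of the 10 passed as lower than in young adult, beside 13.6% of all probe sets. These genes lie in the same low range as Hcn2 and Scn3b, where 44.9% of the probe sets passed as lower at E10.5. For Scn2b, which encodes beta2, the value at E10.5 was 0.34 against young adult (adjusted p = 0.0793), and for Hcn3, an HCN pore subunit, it was -0.32 (adjusted p = 0.0942). Whether Hcn2 differs from Hcn3 in its change was not tested.

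Of 12 genes whose products bind or regulate sodium channels, 4 passed as higher at E10.5 than in young adult and 1 as lower, with a median log2 difference of 0.28. Of all probe sets 27.1% passed as higher and 35.9% as lower. The lower one, Fgf12, had no stage mean above 3.06. The largest differences among those above 5 were Ank3, which encodes the anchoring protein ankyrin-G (2.25, SE 0.16, adjusted p = 3.91e-13), Nedd4l, a ubiquitin ligase that targets sodium channels (2.14, SE 0.21, adjusted p = 2.55e-10), and Camk2d, the main cardiac CaM kinase II (1.14, SE 0.32, adjusted p = 0.00323). Of 5 partners of HCN channels, 1 passed as higher and 2 as lower. They include Mrvi1 (-0.85, SE 0.17, adjusted p = 6.87e-05) and Kctd3 (0.55, SE 0.16, adjusted p = 0.00362).

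A list of 9 transcription factors linked to the node and conduction system held Shox2, Tbx3, Tbx18, Isl1, Tbx5, Nkx2-5, Irx3, Id2 and Rest. Of these, 7 passed as higher at E10.5 than in young adult and none as lower, beside the 27.1% and 35.9% of all probe sets. Their median log2 difference was 1.58. Tbx18, which marks sinus horn and epicardial cells, was higher by 3.89 (SE 0.35, adjusted p = 6.6e-11), Nkx2-5, the early cardiac homeobox factor, by 2.93 (SE 0.17, adjusted p = 1.29e-15), and Id2, an inhibitor of basic helix-loop-helix factors, by 2.66 (SE 0.34, adjusted p = 6.07e-08). Shox2 (-0.09, adjusted p = 0.706) and Tbx3 (-0.15, adjusted p = 0.581), which mark the sinoatrial node, did not pass. The list of 4 sinoatrial node markers also holds Tbx18 and Isl1. Isl1 was higher at E10.5 by 1.56 (SE 0.27, adjusted p = 1.28e-05). The mean over the 4 markers lay between 4.99 and 6.29 on the embryonic arrays and between 4.26 and 4.90 on the adult ones.

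Some markers of other cell types were also higher in the adult stages, and their counts at E19.5 stand beside the 13.6% of all probe sets that passed as lower than in young adult. The mean over 3 Schwann cell and glia markers (S100b, Sox10 and Gfra3) lay between 3.94 and 5.28 on the embryonic arrays and between 5.29 and 5.81 on the adult ones, and 3 of the 3 passed as lower at E19.5 than in young adult. The mean over 6 autonomic neuron markers lay between 3.86 and 4.27 in the embryo and between 4.30 and 4.52 in the adult, with 1 of the 6 passing as lower at E19.5 and 5 not passing. The mean over 3 adipocyte markers (Adipoq, Cidec and Retn) lay between 2.65 and 3.33 in the embryo and between 3.35 and 5.42 in the adult, with 3 of 3 lower at E19.5. For these 3 lists every adult array lay above every embryonic array, though by narrow margins. The same held for 4 skeletal muscle markers (Acta1, Ckm, Myh4 and Tnnt3), whose mean reached 5.93 in the embryo and began at 5.98 in the adult. Acta1 and Ckm carried this mean, with highest stage means of 10.09 and 10.37. Myh4 and Tnnt3 had no stage mean above 2.89 and 3.78, so that the list mean does not show a skeletal muscle signal. Of those 4, only Acta1 passed as lower at E19.5 (-2.19, adjusted p = 0.00124). In Scn7a the gap was wider, with 4.82 the highest embryonic value and 6.62 the lowest adult one.

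The mean over 6 fibroblast markers rose from 6.44 ± 0.11 (SD, n = 3) at E10.5 to 9.12 ± 0.10 at E13.5, then stood at 9.47 ± 0.16 by E19.5 and at 9.79 ± 0.38 in young adult. Over the same days Scn7a read 4.43 ± 0.04, 4.21 ± 0.08, 4.68 ± 0.12 and 6.90 ± 0.22. Most of the rise in the fibroblast mean preceded E13.5, and that of Scn7a followed E19.5, but the markers differed among themselves. At E19.5 3 of the 6 were lower than in young adult and 2 higher. Lum had a mean of 4.53 on the E10.5 arrays, 6.79 on the E19.5 arrays and 10.17 in young adult, so that its larger rise was after E19.5 (log2 difference of E19.5 from young adult -3.39, adjusted p = 2.5e-07), and Dcn was also lower at E19.5 (-1.98, adjusted p = 1.91e-09). Col1a1 was higher at E19.5 than in young adult (3.33, adjusted p = 6.56e-14). Atrial markers had a mean between 7.08 and 8.55 in the embryo and between 7.99 and 10.46 in the adult, and endothelial markers between 5.48 and 6.72 and between 6.66 and 8.02. At E19.5 1 of 4 atrial markers (Sln) and 1 of 4 endothelial markers (Pecam1) passed as lower than in young adult, and 3 of each did not pass. At E10.5 1 atrial marker passed as higher (Myl7, 1.94, adjusted p = 0.000723) and 1 as lower, and 3 endothelial markers passed as lower. Of all probe sets 27.1% passed as higher at E10.5 and 35.9% as lower. The part of these cell types in the members' values was not tested.

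**Figure D3:**
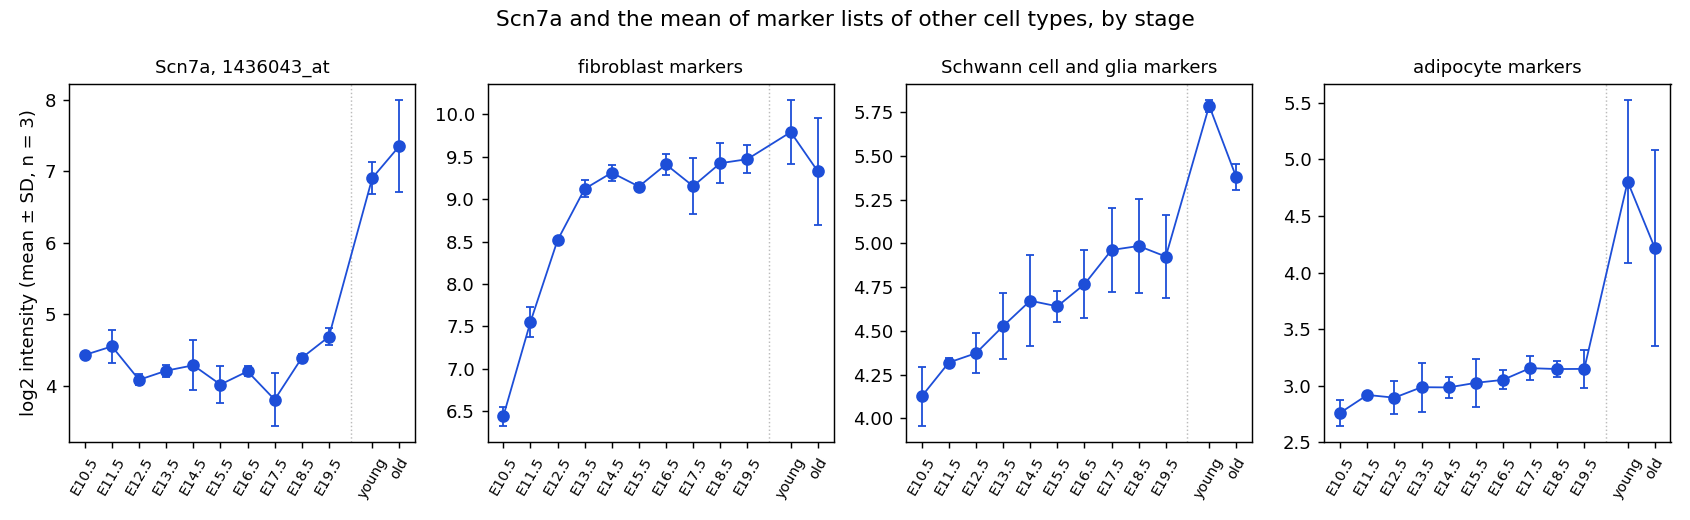
Mean log2 intensity (y axis, ± SD, n = 3 arrays) by stage (x axis) of Scn7a (1436043_at) and of the marker lists for fibroblasts (6 genes), Schwann cells and glia (3 genes) and adipocytes (3 genes). Scn7a, glia and adipocyte markers are highest in the adult stages, and the mean of the fibroblast list climbs mainly between E10.5 and E13.5. The panels have separate y scales.

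Across the 12 stage means the members resembled each other to different degrees. Pearson's r was 0.93 between Scn7a and Scn4b, 0.88 between Hcn2 and Scn3b, 0.84 between Scn7a and Scn3b, and 0.68 between Scn3b and Scn4b, the other 2 pairs lying between 0.69 and 0.75. These are descriptions over stages of the same arrays, and the difference between embryo and adult weighs heavily in them.

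For each member the genes with the most similar profile were sought among 11317 genes by the same measure. Nearest to Scn7a was Nr1d2, which encodes the circadian nuclear receptor REV-ERB beta (r = 0.996, n = 12 stage means), with a mean of 6.44 on the E10.5 arrays and 6.74 on the E19.5 arrays before 9.26 in young and 9.71 in old adult hearts. Gstt2 and Tcta followed (both r = 0.99). Among the nearest to Scn4b were Dtnbp1 (r = 0.98) and Trim54, which encodes a muscle ubiquitin ligase (0.98). Trim54 also had a lower mean on the E19.5 arrays (4.29) than on the E10.5 arrays (4.89), and 7.42 in young adult. Nearest to Hcn2 were Rnpepl1 (0.99), Yipf7 (0.98) and Adck3 (0.98), and to Scn3b Plcg2 (0.98), Ramp3 (0.96) and Dram1 (0.96).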

How the data were processed

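RNA of 36 mouse heart samples was hybridized to 1-colour Affymetrix arrays (Mouse430 2.0). The authors made the deposited log2 values by robust multi-array average (background correction, quantile normalization and probe summary; the submitters' processing notes name Affymetrix Expression Console and Partek 6.6), and these were used as deposited. Array medians lay between 4.00 and 4.20, no 2 arrays were identical, and correlations within a stage ran from 0.969 to 0.996. Symbols come from the array's annotation, and 6937 probe sets have no gene ID. Positions are from RefSeq (GRCm38.p6).

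Stages were compared in R 4.3.3 with limma 3.58.1 (12 stage means on 36 arrays, prior degrees of freedom 6.96), with Benjamini-Hochberg adjustment over all probe sets in each comparison. The slope and F test used 30 embryonic arrays, and the sex comparison 9 male and female pairs with stage as a block, also with an interaction of sex with adult stage. The procedures were tested on simulated data. Each gene was read from its probe set with the highest mean; of each kin or partner list at most 3 genes were named, those with the largest difference between E10.5 and young adult among those passing with a mean above 5 in at least 1 stage, and 3 genes of like profile per member. Some genes of the lists, and of those with a like profile, are not reported here. Genes of the same channel families and other markers were given by value beside them. The members and lists were chosen with earlier results of these data known. Motifs and the shared run were searched after the profiles were seen. Alternatives concerned normalization, filters, covariates, blocks, limits, probe sets and left-out arrays.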

Additional observations from a re-analysis of the deposited data

How the results depend on the processing

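Counts below are of the 4 members passing at an adjusted p under 0.05. For E10.5 against young adult the 4 became 2 when only probe sets above 5 in at least 1 stage entered the model (which leaves out Hcn2 and Scn3b), 1 with the hybridization control level as a covariate, and 1 under the study's limits. For E10.5 against E19.5 the 2 became 1 after quantile normalization once more, 1 with only the arrays of the 2 stages, and 0 with the filter, with the covariate and under the study's limits. The filter and the limits both leave out Hcn2 and Scn3b, the 2 that had passed. For E19.5 against young adult and for the daily steps (with the step from E19.5 to young adult counted among them), the study's limits left 1 of 3 passing results. The slope count of 2 became 0 with the filter and 0 under the study's limits, but neither could come out otherwise. Hcn2 and Scn3b, the 2 that passed, are again left out by both. The study's log2 limit of 2 is for differences between stages, not for a slope per day. The old adult count of 0 became 1 with the covariate (Scn3b, 0.75, adjusted p = 0.0465). With each array left out in turn there were 3 to 4 members at E10.5 against young adult, 2 to 3 at E19.5, 1 to 2 at E10.5 against E19.5, 0 to 1 at old adult, 2 to 2 for the slope, 2 to 3 in the daily steps and 0 to 0 between sexes. Values that changed sign, none of which passes in the results above, were these. Centring on probe sets with a mean above 5 gave -0.14 for Hcn2 in old adult and slopes of 0.0330 for Scn7a and 0.0180 for Scn4b. The covariate gave 0.0223 for Scn3b at E19.5 against young adult, a slope of 0.0522 for Scn7a and 0.00753 for Scn7a between sexes. Over left-out arrays the Scn7a slope ran from -0.0148 to 0.00585, and the old adult differences from -0.0687 to 0.0707 for Hcn2 and from -0.0875 to 0.558 for Scn4b. The causes were not tested. Centring on the probe sets never above 5, chosen after seeing the data, left Scn4b at E10.5 against young adult at -0.53 (adjusted p = 0.08).

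With the sex label as a replicate block, Hcn2 at E19.5 against young adult missed the threshold (-0.34, adjusted p = 0.0549), and the slopes of Scn7a and Scn4b were 0.00567 and 0.00148. The numbers of the E10.5 and E11.5 arrays do not pair them (correlations of deviations 0.142, -0.208 and 0.124), and the block by number left the daily steps at 3. Hcn2 and Scn3b lie below 5 throughout, where intensity limits what can be told.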
